A study of Homo sapiens with 36 samples.

Results

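The mitotic and spindle genes are 40 human genes that carry a cell from the start of mitosis to the separation of the daughter cells, and they were read from the 60591 rows of the deposited mRNA count table by gene symbol. All 40 symbols had a row. NUSAP1 held 0 to 14 counts per library and did not pass the filter on low counts, so that 39 members were tested. The 18 mRNA libraries came from HT-29 and Caco-2, both established from human colorectal tumours, with 3 biological replicates in each of 6 groups. Caco-2 had been left to differentiate for 21 days, by which time this line comes to resemble absorptive enterocytes, whereas HT-29 cells were grown in another medium and the labels name no differentiation. For 24 h the cells received CoCl2 at 300 µM, an oxyquinoline derivative (Oxy in the labels, OD below) at 5 µM dissolved in dimethyl sulfoxide, or dimethyl sulfoxide alone at 0.5 µl per ml of medium as the control. Both agents are used to imitate hypoxia at normal oxygen, since they block the prolyl hydroxylases whose action leads to the breakdown of hypoxia-inducible factor (HIF). The labels identify OD by a catalogue number only. The study's methods and the labels give different solvent conditions for CoCl2, and whether these groups differed in solvent was not settled. Line, medium and culture state cannot be told apart in any comparison between the lines.

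Entry into mitosis is driven by the kinase CDK1 bound to cyclins A and B. Polo-like and Aurora kinases then build the spindle, kinetochores attach the chromosomes to it, and the spindle checkpoint holds back the anaphase-promoting complex until every chromosome is attached. Most of these mRNAs are made in late S and G2 phase under the control of the MuvB complexes: bound to B-MYB (the product of MYBL2) and FOXM1 the complex activates them, and as part of DREAM it represses them in resting cells. DREAM reaches many of these promoters through a short element, the cell cycle genes homology region (CHR), that often lies near CCAAT boxes bound by NF-Y. MYBL2 itself is an earlier gene, switched on at the border of G1 and S phase by E2F factors.

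Promoter sequences are shown so that a reader can see the letters that most of these promoters share. The members shown are CCNB1 and CDC20 (lower with OD in Caco-2), ASPM (lower there with both agents), MYBL2 (higher there with OD), CCNB2 and TOP2A. RefSeq promoter windows of 250 bases before to 50 bases after the start (GRCh38.p14) were matched by symbol for 34 of the 40 members. FOXM1, TTK, AURKA, UBE2C, BIRC5 and TPX2 had none in the table used here. Stretches from 180 bases before the RefSeq start are printed 5′ to 3′ on the strand of the gene, ending where the first annotated exon of GENCODE v44 begins. Capitals mark CCAAT boxes (CCAAT, or ATTGG on the opposite strand) and CHR letters (TTTGAA or TTTAAA, or TTCAAA for the opposite strand).
CCNB1, chr5:69166970-69167134, plus strand: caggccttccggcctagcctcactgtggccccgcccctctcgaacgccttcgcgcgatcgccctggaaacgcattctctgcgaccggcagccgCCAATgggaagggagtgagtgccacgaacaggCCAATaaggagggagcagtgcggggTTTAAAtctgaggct
CDC20, chr1:43358801-43358980, plus strand: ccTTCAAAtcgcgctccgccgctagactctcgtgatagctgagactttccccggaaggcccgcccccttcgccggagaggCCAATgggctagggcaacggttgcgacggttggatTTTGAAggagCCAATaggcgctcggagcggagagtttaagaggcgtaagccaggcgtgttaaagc
CCNB2, chr15:59104966-59105125, plus strand: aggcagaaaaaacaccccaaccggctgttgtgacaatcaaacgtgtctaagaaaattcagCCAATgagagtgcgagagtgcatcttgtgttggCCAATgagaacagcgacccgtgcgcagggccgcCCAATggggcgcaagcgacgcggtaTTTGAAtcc
ASPM, chr1:197146695-197146849, minus strand: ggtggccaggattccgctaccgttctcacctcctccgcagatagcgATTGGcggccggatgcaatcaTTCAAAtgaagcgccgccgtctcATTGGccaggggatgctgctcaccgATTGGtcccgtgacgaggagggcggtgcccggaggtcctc
TOP2A, chr17:40417897-40418076, minus strand: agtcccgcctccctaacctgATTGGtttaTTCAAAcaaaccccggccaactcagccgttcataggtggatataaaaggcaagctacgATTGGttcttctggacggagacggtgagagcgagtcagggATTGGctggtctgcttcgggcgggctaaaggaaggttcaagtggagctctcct
MYBL2, chr20:43666934-43667018, plus strand: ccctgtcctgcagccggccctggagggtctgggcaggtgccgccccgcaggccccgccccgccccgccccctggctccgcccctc

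In CCNB1, whose mRNA encodes cyclin B1, 2 CCAAT boxes began 87 and 55 bases before the start, and TTTAAA began at 30. CCNB2 (cyclin B2) held 3 CCAAT boxes at 120, 87 and 54 bases and TTTGAA at 29. In CDC20, TTTGAA began 65 bases before the start, between CCAAT boxes at 100 and 55. The ASPM and TOP2A stretches held their CCAAT boxes on the opposite strand, 3 in each. MYBL2 showed neither set of letters in the 85 bases printed, nor in its whole window. Over the 34 members, 26 windows (76.5%) held CCAAT on either strand, against 39.7% of 27305 genes with a window and 42.1% of 15843 protein-coding genes. CHR letters were in 30 of 34 (88.2%), against 27.9% of all genes and 24.7% of protein-coding genes. Both were in 23 members (67.6%), against 11.2% and 10.4%. At least 2 CCAAT boxes were in 18 members (52.9%), against 12.9% and 14.8%. The core letters ACGTG of the HIF response element were in 15 members (44.1%), against 24.9% and 28.5%. CCNB1 and MYBL2 were among these 15. A gene with several windows was counted when any of them held the letters. A match is a run of letters and not a measured site, and binding was not measured.

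The 18 mRNA libraries held from 12925719 to 22332639 counts each. Levels are given as CPM, the library-size-scaled read count of a gene, after TMM scaling (trimmed mean of M values) within a line. All 7 epithelial markers were above 1 CPM in the mean of every group, and their sum was higher with both agents in both lines, carried by keratins, EPCAM and CDH1 (4650 to 4809 CPM in Caco-2 controls and 6153 to 7984 CPM in treated Caco-2, 5120 to 5152 CPM in HT-29 controls and 6467 to 7074 CPM in treated HT-29). VIL1 (villin) went the other way in HT-29, from a mean of 205 CPM in control to 33.6 with CoCl2 and 92.5 with OD, as did CDX2, an intestinal transcription factor, from 12.8 to 4.63 and 8.18 CPM. In Caco-2, VIL1 had 796 CPM in control, 443 with CoCl2 and 869.6 with OD. CDX2 was not lower there, with means of 154 CPM in control, 292 with CoCl2 and 164 with OD. The summed enterocyte markers (8 genes) ran from 6701 to 7064 CPM in Caco-2 controls and from 16.5 to 16.7 CPM in HT-29 controls, and they were lower in treated Caco-2, at 4788 to 5393 CPM with CoCl2 and 5154 to 5492 CPM with OD. That sum was lower mainly through APOB (means of 3927, 1063 and 2359 CPM in control, with CoCl2 and with OD). The mean of SI was also lower with both agents (289, 115 and 232 CPM), as were those of ALPI, ANPEP and FABP2. By contrast, APOA1 (2545, 3721 and 2608 CPM), APOA4 (13.1, 61.2 and 32.4 CPM) and MTTP (36.4, 51.2 and 58.6 CPM) had higher means in treated cells. In treated HT-29 the sum ran from 9.26 to 10.5 CPM. The 5 goblet markers summed to between 638 and 980 CPM in all libraries, most of it AGR2. The mucin MUC5AC had means in HT-29 of 132 CPM in control, 22.4 with CoCl2 and 173 with OD, and MUC2 22.5, 10.9 and 13.4 CPM. Summed fibroblast markers (5 genes) ran from 3.06 to 30.0 CPM, those of leukocytes (4 genes) from 0.109 to 2.85 CPM and those of endothelium (3 genes) from 0.299 to 12.5 CPM. The part of these markers in the results was not tested. Mean TMM factors in Caco-2 were 1.12 in control, 0.894 with CoCl2 and 1.00 with OD. The HT-29 means were 1.19, 0.770 and 1.09. With scaling by library size alone, the all-gene median of the log2 fold change moved by -0.32 in Caco-2 and -0.63 in HT-29 for CoCl2, and by -0.15 in Caco-2 and -0.14 in HT-29 for OD. Changes below are therefore relative to the bulk of genes. A change, rise or fall given without the word fold is a log2 fold change, and its error is the SE of the edgeR fit. Levels in CPM carry the SD of 3 libraries. Within a line, both agents were set against the same 3 control libraries, so that their comparisons share those samples.

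In HT-29 most members fell with both agents. ANLN with CoCl2 (lower on library size alone and not passing without the filter) and MYBL2 with OD were the ones that rose. With OD, 5 members did not pass. Summed over the members, the level was 5876 ± 39.9 CPM (SD, n = 3) in control, 2699 ± 118 CPM with CoCl2 and 3630 ± 22.6 CPM with OD. In bulk RNA, fewer cells in mitosis and less of these mRNAs per cell cannot be told apart. "Passed" means an FDR under 0.05 in edgeR's quasi-likelihood test over all genes, and "called" means passed with an absolute log2 fold change over 1. With CoCl2, 38 of 39 members passed as lower and 1 as higher, against 42.2% and 40.7% of the 15812 genes tested in HT-29. Of these, 22 were called lower and 0 higher, against 23.9% and 17.4% of all genes. The median log2 fold change was -1.18 over the members and -0.03 over all genes. With OD, 33 members passed as lower and 1 as higher, against backgrounds of 34% and 34.7%. Called lower were 8 and called higher 0, against 7.57% and 9.5%. The median was -0.74, against 0.01 for all genes. The median difference of the members from the control mean ran from -1.21 to -1.16 log2 units over the 3 HT-29 libraries with CoCl2, and from -0.75 to -0.70 over those with OD. With library size alone, 36 members were called lower with CoCl2 and 16 with OD. On that scaling the median was -1.81 over the members and -0.66 over all genes with CoCl2. With OD these medians were -0.88 and -0.13. The share of all genes called on that scaling is not given here.

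In differentiated Caco-2 members moved in both directions with each agent. The summed level of the set was 2554 ± 143 CPM in control, 2406 ± 127 CPM with CoCl2 and 2967 ± 50.7 CPM with OD (SD, n = 3). The sums with OD lay above all controls, and those with CoCl2 overlapped them. The median difference of the members from the control mean ran from -0.11 to -0.03 log2 units with CoCl2 and from 0.12 to 0.15 with OD. Control replicate 3 was high across the set, with 35 of 39 members above the control mean (11 and 13 in replicates 1 and 2) and a sum of 2718 CPM against 2451 and 2493 CPM. Without it, CoCl2 gave 8 higher and 10 lower and OD 15 and 10. With CoCl2, 8 members passed as higher and 12 as lower, against 31.6% and 33.1% of the 16034 genes tested in Caco-2, and the median was -0.05. Called were 0 higher and 1 lower (ASPM), against 9.13% and 14.2%. With library size alone, 1 member (TTK) passed as higher and 26 as lower. The medians were then -0.38 over the members and -0.35 over all genes. OD gave 15 higher and 11 lower, against 25.7% and 24.7%, with a median of 0.14. It gave 1 called higher (MYBL2) and 1 called lower (CCNB1), against 4.43% and 7.27%. With library size alone, OD gave 12 higher and 16 lower, and the median turned to -0.02, against -0.18 over all genes on that scaling. For both agents, the share of all genes that passed on library size alone is not given here. The call of CCNB1 lay at the limit, with a log2 fold change of -1.04 and a range of -1.19 to -0.99 over the alternatives. Leaving out control replicate 3 left 0 members called lower, while leaving out control replicate 1 or OD replicate 3 gave 2.

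**Figure D1:**
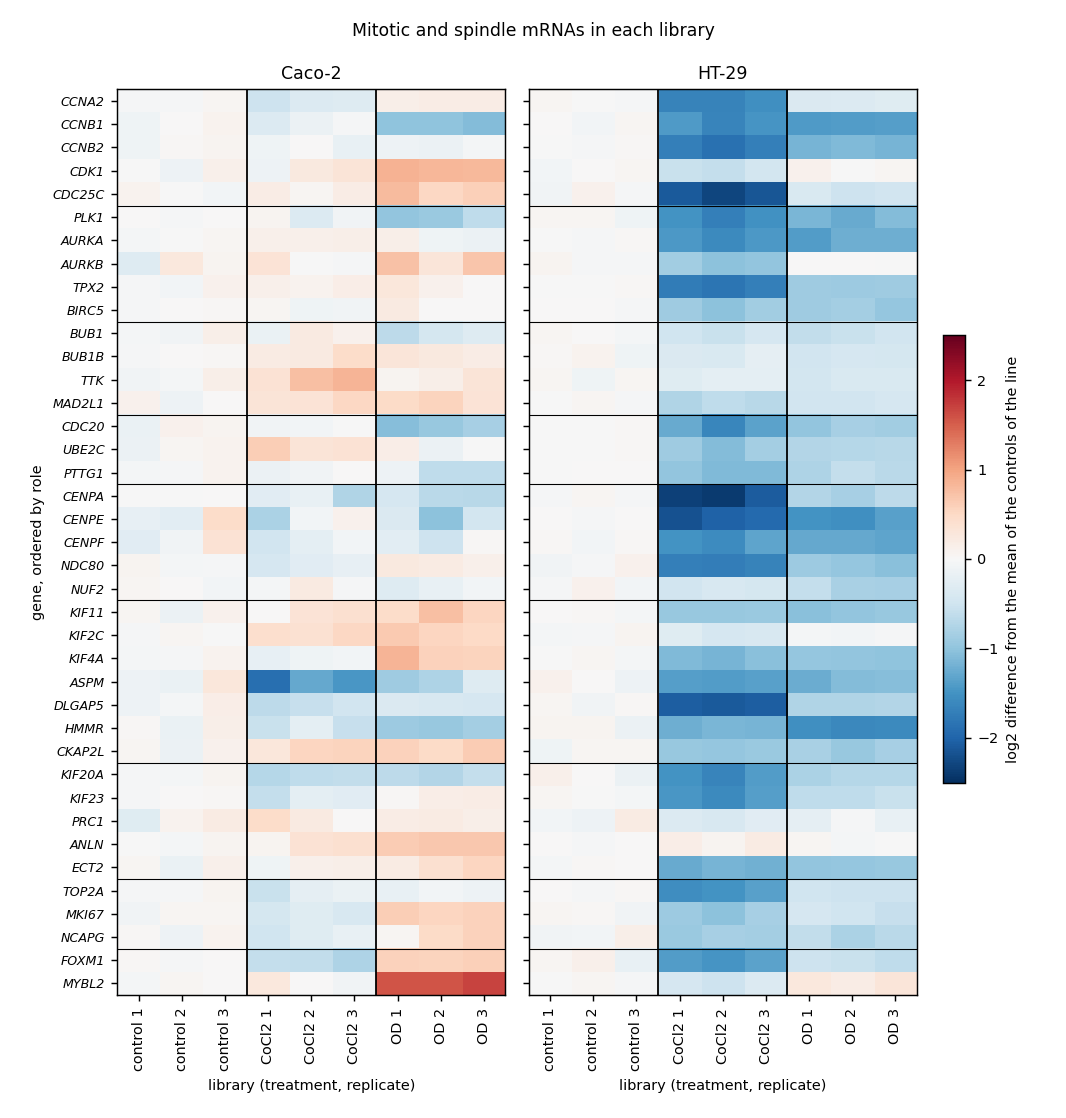
Each row is a tested member, ordered by role with lines between roles, and each column a library; colour is the log2 difference in CPM (with 0.5 added) from the mean of the 3 controls of the same line. In HT-29 nearly all rows are blue with CoCl2 and, more weakly, with OD, while Caco-2 holds rows of both colours and a deep red MYBL2 row with OD.

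Among the genes of mitotic entry, CCNB1 showed the clearest split between the agents in Caco-2. Its gene lies on chromosome 5, 69167135 to 69178245 (GENCODE v44, GRCh38). CCNB1 stood at 112, 122 and 129 CPM in Caco-2 controls, at 95.5, 109 and 119 CPM with CoCl2 and at 59.9, 60.3 and 56.7 CPM with OD. The OD libraries lay below all controls and the CoCl2 libraries overlapped them, with log2 fold changes of -1.04 ± 0.09 (SE, FDR 5.2e-10) and -0.16 ± 0.08 (FDR 0.087). In HT-29 the levels were 197, 188 and 205 CPM in control, 73.6, 62.2 and 70.0 CPM with CoCl2 and 72.9, 74.3 and 75.1 CPM with OD. Both agents took CCNB1 to about the same level there, 2.87-fold and 2.65-fold lower than control.

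CDK1, the kinase that cyclin B1 activates, went the other way with OD in Caco-2. It stood at 109, 100 and 119 CPM in control and at 199, 194 and 192 CPM with OD, a log2 fold change of 0.83 ± 0.09 (FDR 8.1e-08) with no overlap. With CoCl2 the Caco-2 values of 99.3, 129 and 137 CPM overlapped control. In HT-29, CDK1 had 124, 131 and 133 CPM in control and 87.5, 84.9 and 94.5 CPM with CoCl2, and it fell by 0.54 ± 0.05 on the log2 scale (FDR 4.7e-10). With OD, HT-29 held 140, 129 and 134 CPM, and the difference of 0.05 ± 0.05 did not pass (FDR 0.36). CDC25C, the phosphatase that releases CDK1 from its inhibitory phosphates, stood in HT-29 at 32.0, 36.9 and 33.6 CPM in control, 7.54, 6.57 and 7.33 CPM with CoCl2 and 26.0, 23.6 and 24.5 CPM with OD. It was 4.80-fold lower with CoCl2 (log2 -2.26 ± 0.09, FDR 1.9e-18), while OD gave -0.47 ± 0.07. In Caco-2 the same gene rose with OD, from 23.3 ± 1.28 to 36.7 ± 3.83 CPM (0.65 ± 0.10, FDR 8.3e-06). CCNA2 (cyclin A2) and CCNB2 fell with both agents in HT-29, by 1.64 and 1.78 with CoCl2 and by 0.34 and 1.15 with OD, on the log2 scale.

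**Figure D2:**
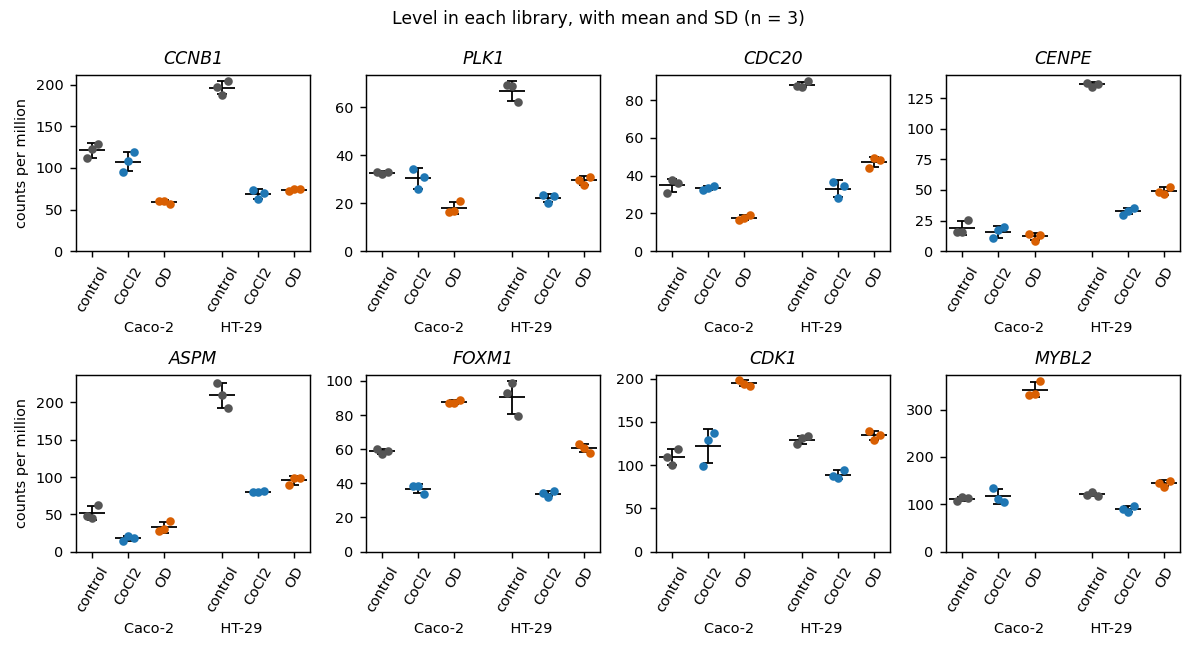
CPM of 8 genes in each library (points), with the mean (bar) and SD (whiskers, n = 3) of each group; CPM were scaled within each line and every axis starts at 0. CCNB1, PLK1 and CDC20 are low with OD in both lines, whereas CDK1 and MYBL2 are high with OD in Caco-2.

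The mitotic kinases and their partners fell in HT-29 with CoCl2 in all 5 of 5 members, and in 4 of 5 with OD. Of all genes, 42.2% (CoCl2) and 34% (OD) passed as lower there. PLK1, polo-like kinase 1, which acts at centrosomes, kinetochores and the midbody, had 69.4, 69.1 and 62.2 CPM in HT-29 controls. It had 23.4, 20.2 and 23.2 CPM with CoCl2 and 29.9, 27.6 and 31.1 CPM with OD, so that no treated library reached a control. The log2 fold changes were -1.59 ± 0.07 and -1.17 ± 0.06 (FDR 1.6e-17 and 6.1e-15). In Caco-2, PLK1 stood at 33.1, 32.1 and 33.2 CPM in control and at 16.2, 16.9 and 20.8 CPM with OD (-0.87 ± 0.12, FDR 1.0e-06). CoCl2 gave 34.5, 25.8 and 30.8 CPM, which overlapped control. AURKA, the spindle pole kinase, fell in HT-29 from 139, 136 and 143 CPM to 51.0, 45.6 and 50.9 CPM with CoCl2 and 52.8, 59.4 and 59.2 CPM with OD. In Caco-2 neither change of AURKA passed, with 0.13 ± 0.08 and -0.03 ± 0.08. AURKB, the kinase of the chromosomal passenger complex, behaved otherwise. It fell in HT-29 with CoCl2 (30.9 ± 1.36 to 15.7 ± 0.905 CPM, log2 -0.97 ± 0.07) but held 30.9, 31.2 and 30.7 CPM with OD, within the control range of 30.1 to 32.5 CPM. In Caco-2, AURKB rose with OD by 0.59 ± 0.15 (FDR 0.0019). TPX2, which activates AURKA on the spindle, was 3.40-fold lower with CoCl2 and 1.87-fold lower with OD in HT-29. BIRC5 (survivin), a passenger protein, was 1.91-fold and 1.88-fold lower.

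The spindle checkpoint genes fell least with CoCl2 in HT-29 among the roles of more than 2 members, with a median log2 fold change of -0.41 over the 4. TTK, the MPS1 kinase at the head of the checkpoint, had 67.6, 61.4 and 68.4 CPM in HT-29 controls and 53.5, 55.4 and 55.3 CPM with CoCl2 (-0.27 ± 0.05, FDR 8.0e-05). In Caco-2, TTK had 25.7, 26.2 and 30.3 CPM in control and 35.5, 46.4 and 50.0 CPM with CoCl2. All 3 treated libraries were above the controls, and TTK rose by 0.69 ± 0.11 (FDR 1.1e-05), the largest rise of a member with CoCl2 in Caco-2. MAD2L1, the inhibitor that binds CDC20, rose in Caco-2 by 0.40 ± 0.10 with CoCl2 and 0.47 ± 0.10 with OD. The same gene fell in HT-29 by 0.69 ± 0.05 and 0.46 ± 0.05. BUB1B (BubR1) rose by 0.30 ± 0.09 with CoCl2 in Caco-2, and with library size alone this value was -0.02. For MAD2L1 that scaling left 0.08 with CoCl2, which did not pass, whereas TTK kept 0.37. BUB1, a kinase that loads the checkpoint onto kinetochores, was at 41.3 ± 3.55 CPM in Caco-2 controls and 29.7 ± 3.44 CPM with OD, and fell by 0.48 ± 0.11 (FDR 0.00069).

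The genes of the exit from metaphase differed among themselves. CDC20, the activator of the anaphase-promoting complex, had 30.7, 37.5 and 36.3 CPM in Caco-2 controls, 32.6, 33.2 and 34.7 CPM with CoCl2 and 16.4, 17.8 and 19.2 CPM with OD. The OD libraries stood apart and the CoCl2 libraries did not, with log2 values of -0.97 ± 0.10 (FDR 4.1e-08) and -0.05 ± 0.10. In HT-29 its levels of 87.5, 87.1 and 89.8 CPM went to 36.4, 28.1 and 34.7 CPM with CoCl2 and 44.2, 49.5 and 48.3 CPM with OD. UBE2C, the ubiquitin-conjugating enzyme of the same complex, rose with CoCl2 in Caco-2 from 96.9 ± 8.67 to 131 ± 14.5 CPM (0.43 ± 0.09, FDR 0.00027). With library size alone that value was 0.11 and did not pass. In HT-29, UBE2C fell by 0.95 ± 0.05 with CoCl2 and 0.72 ± 0.05 with OD. PTTG1 (securin), which holds separase inactive, fell in HT-29 by 1.08 ± 0.06 and 0.69 ± 0.05, and in Caco-2 with OD by 0.46 ± 0.11. In the latter group its libraries were uneven, at 42.8, 30.1 and 30.1 CPM.

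Kinetochore genes held the largest fall of the set. CENPA, the histone H3 variant that marks centromeres (chromosome 2, 26764289 to 26801067), had 19.0, 20.1 and 18.8 CPM in HT-29 controls and 3.44, 3.25 and 4.20 CPM with CoCl2. That was 5.35-fold lower (log2 -2.42 ± 0.11, FDR 9.7e-17). With OD it had 11.5, 10.6 and 12.0 CPM, between the other groups and overlapping neither. In Caco-2, CENPA was low throughout, at 7.31 ± 0.095 CPM in control, and the fall of 0.43 ± 0.18 with CoCl2 (FDR 0.035) did not pass with DESeq2, without the filter, without CoCl2 replicate 3 (-0.24) or without any 1 of the controls. With OD, every Caco-2 library was below every control for CENPA. CENPE, a motor that carries chromosomes to the spindle equator, had 137, 134 and 137 CPM in HT-29 controls, 29.8, 33.3 and 35.1 CPM with CoCl2 and 48.2, 46.4 and 52.7 CPM with OD. These were falls of 2.06 ± 0.06 and 1.47 ± 0.05 on the log2 scale. In Caco-2 the control replicates of CENPE differed widely, at 15.9, 15.4 and 25.5 CPM. Its fall of 0.65 ± 0.20 with OD there (FDR 0.010) did not pass with DESeq2, without control replicate 3 (-0.38) or without OD replicate 2 (-0.45). NDC80, the microtubule-binding subunit of the outer kinetochore, fell 3.3-fold with CoCl2 and 1.97-fold with OD in HT-29, whereas its partner NUF2 fell by 0.44 ± 0.07 and 0.75 ± 0.07 on the log2 scale. CENPF, a large outer kinetochore protein, fell by 1.46 ± 0.05 and 1.30 ± 0.05.

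Of the 7 tested spindle and motor genes, 3 passed as higher and 3 as lower with CoCl2 in Caco-2, and 4 and 3 with OD. The shares of all genes (higher, lower) were 31.6% and 33.1% with CoCl2 and 25.7% and 24.7% with OD. ASPM, which acts at spindle poles, stood at 47.2, 45.5 and 62.9 CPM in Caco-2 controls, 13.6, 20.9 and 18.5 CPM with CoCl2 and 27.3, 29.9 and 41.1 CPM with OD. Every treated library was below every control, and CoCl2 gave a 2.92-fold fall (log2 -1.54 ± 0.15, FDR 3.0e-09), while OD gave -0.66 ± 0.14 (FDR 0.00043). In HT-29 its values were 226, 209 and 193 CPM in control, 80.3, 79.2 and 80.9 CPM with CoCl2 and 88.8, 98.4 and 99 CPM with OD. HMMR, a spindle assembly factor, was the member that fell most with OD in HT-29. It went from 93.9, 94.0 and 81.0 CPM to 30.7, 29.0 and 29.3 CPM with OD, 3.01-fold lower, and to 38.3, 40.4 and 39.7 CPM with CoCl2. DLGAP5 (HURP), which stabilises kinetochore fibres, fell 4.33-fold with CoCl2 in HT-29, from 62.4 ± 3.20 to 14.4 ± 0.141 CPM, and by 0.75 ± 0.05 on the log2 scale with OD. For HMMR and DLGAP5, every treated Caco-2 library was also below every Caco-2 control with both agents. HMMR had a log2 fold change of -0.91 with OD in Caco-2, the lowest of the spindle and motor genes there. KIF11 (Eg5), the motor that pushes the poles apart, moved in opposite directions with OD in the lines: it rose in Caco-2 by 0.59 ± 0.10 (50.8, 44.1 and 53.2 CPM to 67.4, 82.9 and 72.0 CPM) and fell in HT-29 by 1.00 ± 0.05 (138, 139 and 133 CPM to 65.9, 68.9 and 70.5 CPM). KIF4A, a chromosome-bound motor, did likewise, with 0.67 ± 0.09 and -0.99 ± 0.05. KIF2C (MCAK), which takes microtubules apart, rose in Caco-2 with both agents (0.45 ± 0.08 and 0.58 ± 0.08), fell in HT-29 with CoCl2 by 0.37 ± 0.05, and with OD had -0.05 ± 0.05 there (FDR 0.34). CKAP2L, a spindle-associated protein, rose in Caco-2 by 0.48 ± 0.10 and 0.57 ± 0.10 and fell in HT-29 by 0.97 ± 0.06 and 0.87 ± 0.06. On library size alone, the CoCl2 values in Caco-2 were -0.058 for KIF11, 0.13 for KIF2C and 0.15 for CKAP2L, and none of these passed.

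Of the cytokinesis genes, KIF20A, a motor of the central spindle, fell in both lines with both agents. It stood at 72.1, 71.3 and 77.5 CPM in Caco-2 controls, 44.5, 47.4 and 47.5 CPM with CoCl2 and 46.3, 43.8 and 48.6 CPM with OD. In Caco-2 it fell by 0.66 ± 0.08 and 0.67 ± 0.08 on the log2 scale (FDR 1.2e-07 and 2.2e-07). In HT-29 the falls were larger with CoCl2, at -1.54 ± 0.08 against -0.74 ± 0.07 with OD. ANLN (anillin), a scaffold of the contractile ring, was the only member that passed as higher with CoCl2 in HT-29. It had 160, 156 and 158 CPM in control and 177, 166 and 182 CPM with CoCl2 (0.15 ± 0.05, FDR 0.0070), and 163, 153 and 157 CPM with OD. On library size alone its CoCl2 value turned to -0.49. Without the filter, and with limma on the deposited log2 values, ANLN did not pass as higher. In Caco-2, ANLN rose with OD from 68.3 ± 2.57 to 108 ± 1.33 CPM (0.66 ± 0.08). KIF23 and ECT2, which place and start the cleavage furrow, fell in HT-29 by 1.48 ± 0.06 and 1.21 ± 0.05 with CoCl2 and by 0.61 ± 0.05 and 0.97 ± 0.05 with OD. PRC1, which bundles the microtubules of the central spindle, held only 20 to 196 counts per library. Its annotated exons share 57.6% of their length with a gene on the same strand, as do 86.8% for NUSAP1, so that the counts of both are uncertain. For BUB1B this same-strand share was 10.2%. PRC1 passed in HT-29 with CoCl2 (-0.41 ± 0.14, FDR 0.0098) and no longer passed without control replicate 3 (-0.26).

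Genes of chromosome structure fell together in HT-29, while in Caco-2 the agents differed. MKI67 (Ki-67), the coat of mitotic chromosomes and a common marker of cycling cells, had 221, 242 and 242 CPM in Caco-2 controls. It had 172, 191 and 178 CPM with CoCl2 and 359, 339 and 349 CPM with OD, below and above the controls without overlap. The log2 fold changes were -0.38 ± 0.07 (FDR 6.4e-05) and 0.57 ± 0.07 (FDR 4.2e-07). In HT-29, MKI67 had 731, 721 and 656 CPM in control, 372, 345 and 395 CPM with CoCl2 and 525, 495 and 468 CPM with OD. TOP2A, the topoisomerase that untangles sister chromatids, was 2.78-fold lower with CoCl2 in HT-29 (755 ± 12.4 to 272 ± 19.1 CPM) and fell by 0.51 ± 0.05 with OD. In Caco-2, TOP2A fell by 0.31 ± 0.08 with CoCl2 and did not pass with OD (-0.13 ± 0.08). NCAPG, a condensin subunit, fell in HT-29 by 0.88 ± 0.06 and 0.70 ± 0.06. It shares 33.7% of its exon length with a gene on the other strand, and whether strand was used in counting was not given in the sources used here. The corresponding shares were 34.3% for PRC1, 15.9% for FOXM1 and 12.8% for PLK1, also from GENCODE v44.

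The transcription factors of the set showed the strongest rise. MYBL2 (chromosome 20, 43667019 to 43716495) stood at 107, 115 and 113 CPM in Caco-2 controls, 134, 112 and 104 CPM with CoCl2 and 332, 333 and 360 CPM with OD. The OD libraries were 3.06-fold above control (log2 1.61 ± 0.08, FDR 8.4e-14) and the CoCl2 libraries overlapped it. In HT-29 the levels were 120, 125 and 118 CPM in control, 90.7, 84.1 and 95.9 CPM with CoCl2 and 146, 137 and 150 CPM with OD. MYBL2 was the only member that rose with OD there (0.25 ± 0.05, FDR 0.00011, and 0.12 on library size alone), and it fell by 0.42 ± 0.05 with CoCl2. FOXM1, a forkhead factor of G2 phase, had 59.9, 57.3 and 58.6 CPM in Caco-2 controls, 38.6, 38.1 and 34 CPM with CoCl2 and 87.2, 86.9 and 89.0 CPM with OD. The 3 groups did not overlap, with log2 fold changes of -0.67 ± 0.08 and 0.58 ± 0.08 (FDR 1.1e-07 and 1.2e-06). In HT-29, FOXM1 fell with both agents, from 92.8, 98.6 and 79.4 CPM to 34.1, 32.2 and 35.3 CPM with CoCl2 and 62.9, 60.9 and 57.9 CPM with OD.

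**Figure D3:**
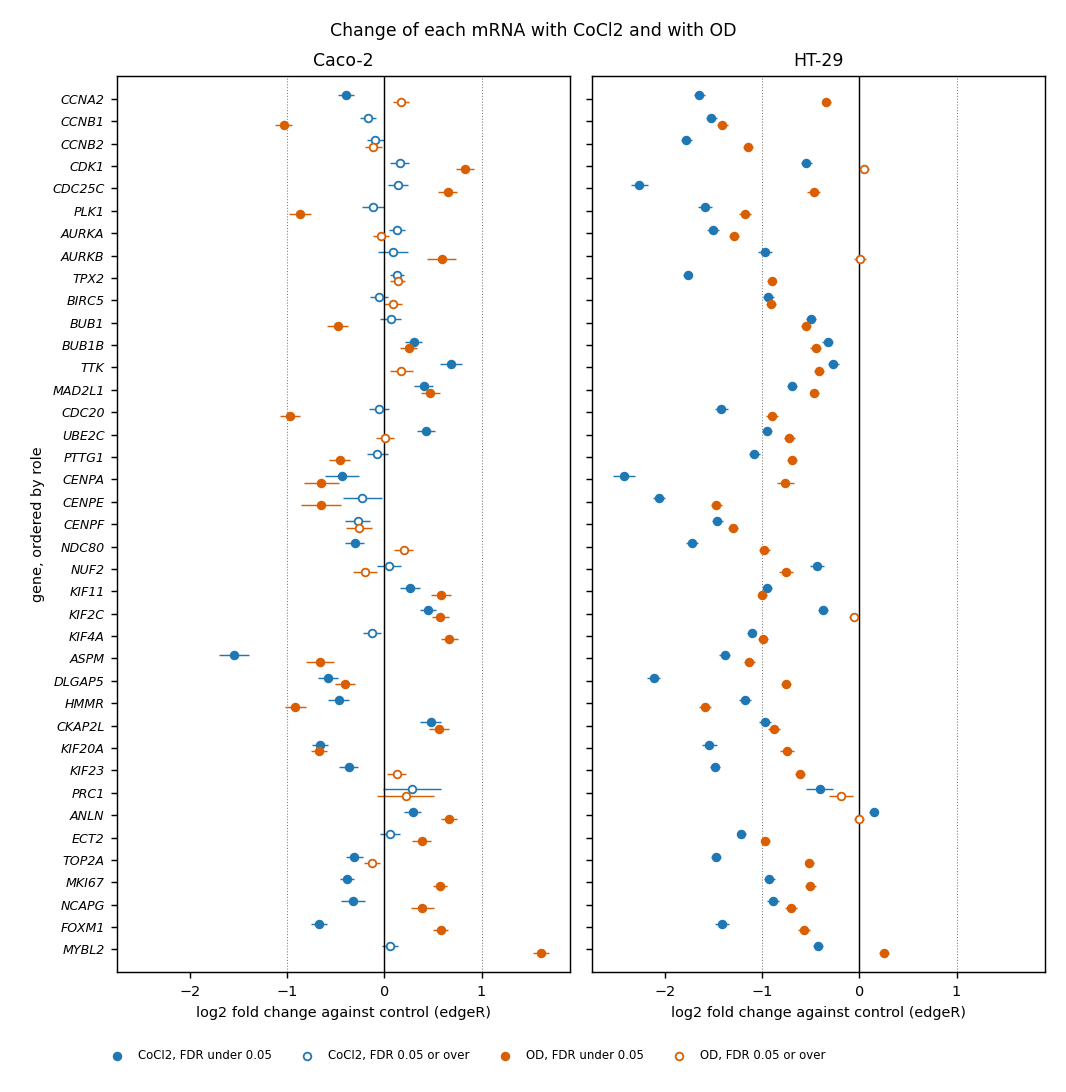
Log2 fold change of each tested member against control (edgeR), with bars of 1 SE, for CoCl2 and OD in each line; filled points passed at an FDR under 0.05 and dotted lines mark 1 and -1. In HT-29, 38 of 39 CoCl2 points are filled and left of 0, while in Caco-2 the points lie on both sides.

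CoCl2 and OD were also compared directly at their own doses, 300 µM and 5 µM, after the same 24 h. In HT-29, CoCl2 libraries were lower than OD libraries for 28 members and higher for 4, against 40.6% and 37.1% of all genes. The median difference was -0.32. CDC25C (-1.79 ± 0.09, FDR 1.6e-15) and CENPA (-1.66 ± 0.12, FDR 3.1e-12) were lowest with CoCl2 relative to OD, whereas HMMR (0.41 ± 0.07) and NUF2 (0.31 ± 0.08) were highest. With library size alone the counts were 38 and 0, and HMMR and NUF2 turned to -0.085 and -0.18, where the all-gene median was -0.56. For CCNB1 the difference of -0.11 ± 0.06 (FDR 0.081) did not pass, nor did those of BIRC5 (-0.03 ± 0.06) and KIF11 (0.05 ± 0.05). In Caco-2, CoCl2 was lower than OD for 15 members and higher for 8, against 25.2% and 24.4%. Library size alone gave 22 and 7, with an all-gene median of -0.17. The share of all genes that passed on that scaling is not given here for either line. MYBL2 (-1.55 ± 0.08, FDR 3.4e-13) and FOXM1 (-1.25 ± 0.08, FDR 7.2e-12) were lowest, and CDC20 (0.91 ± 0.10) and CCNB1 (0.87 ± 0.09) highest. CCNB1, PLK1, CDC20 and BUB1 were thus higher with CoCl2 than with OD in Caco-2, while CCNA2, CDK1, CDC25C and MKI67 were lower.

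The response of HT-29 less that of Caco-2 was tested as an interaction over all 18 libraries, with scaling across both lines, so that its values differ slightly from the difference of the folds above. For CoCl2, 38 members responded more negatively in HT-29 and 0 more positively, against 28.6% and 21.1% of the 17921 genes tested. Of these, 24 were called lower and 0 higher, against 13.8% and 7.79%. The median was -1.21 over the members and -0.13 over all genes. CDC25C (-2.51 ± 0.14, FDR 1.6e-16) and CENPA (-2.09 ± 0.21, FDR 2.8e-10) differed most. ASPM was the exception, at 0.05 ± 0.17 (FDR 0.85), and it fell in both lines. For OD, 33 members responded more negatively in HT-29 and 0 more positively, against 22% and 20.9%, with 15 called lower and 0 higher against 6.24% and 8.96%. KIF4A (-1.68 ± 0.10, FDR 3.8e-15) and KIF11 (-1.60 ± 0.12, FDR 3.5e-13) differed most. The median was -0.74, against 0.01 for all genes. The 6 members that did not pass were CDC20 (0.05 ± 0.12), BUB1, KIF20A, CENPA, PTTG1 and PRC1. The value of PLK1 (-0.32 ± 0.13, FDR 0.047) lay at the threshold. It did not pass under 5 other settings or without any of 8 single libraries, with -0.21 without OD replicate 3 of Caco-2.

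In the control groups the members were higher in HT-29 than in differentiated Caco-2. On scaling across both lines, 38 passed as higher and 1 as lower, against 39.5% and 39.6% of all genes, and 26 were called higher and 0 lower, against 21.6% and 24.2%, and the median log2 difference was 1.35. CENPE was at 142 ± 2.08 CPM in HT-29 and 18.6 ± 5.62 CPM in Caco-2 controls, 7.69-fold higher (2.94 ± 0.14, FDR 2.1e-19). ECT2 was at 286 ± 9.31 and 43.5 ± 4.64 CPM (2.72 ± 0.08). KIF20A was the only member lower in HT-29, at 51.3 ± 4.24 against 72.3 ± 3.43 CPM (-0.50 ± 0.07, FDR 1.5e-07). MYBL2 (0.20 ± 0.07, FDR 0.011), AURKA (0.31 ± 0.07) and CDK1 (0.33 ± 0.08) were the closest between the lines. The MYBL2 difference did not pass with DESeq2 or with relative log expression factors (0.13 with both), or without Caco-2 control replicate 1 (0.18). Line, medium, culture state and 21 days of differentiation cannot be told apart here.

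Per length, on the RPKM scale of the authors' table (reads scaled by gene length and library size), the order of the members in Caco-2 controls began with UBE2C at 76.9 ± 6.82, TOP2A at 57.5 ± 2.18 and TPX2 at 53.9 ± 3.23. TOP2A and TPX2 differed by more than 1 SD of either, but the ranges of 1 SD around their means overlapped. The order ended with CENPA at 3.83 ± 0.0454, CENPE at 1.94 ± 0.581 and PRC1 at 0.290 ± 0.0671 (SD, n = 3), and the median member was at 9.64. With OD, MYBL2 led the order at 122 ± 5.86. In HT-29 controls, TOP2A led at 122 ± 1.84, followed by UBE2C at 107 ± 1.55, and the median was 25.1. That median was 11.6 with CoCl2 and 15.03 with OD. NUSAP1 was not in this table.

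Other genes of the division cycle, which are not members, were counted in the same tests. The lists were written with earlier results of these data known and are given as counts and medians only. The all-gene background (higher, lower) to set beside each count was, in Caco-2, 31.6% and 33.1% (CoCl2) or 25.7% and 24.7% (OD). The HT-29 background was 40.7% and 42.2% (CoCl2) or 34.7% and 34% (OD). Of 62 other mitotic genes, 61 were tested, and in HT-29 49 passed as lower and 6 as higher with CoCl2 (median -1.05), and 44 and 3 with OD (median -0.39). In Caco-2, CoCl2 gave 16 higher and 18 lower (median -0.07) and OD 39 higher and 9 lower (median 0.37). DNA replication genes, which serve S phase rather than mitosis, stood out with OD in Caco-2: 35 of 38 passed as higher and 0 as lower, with a median of 0.88. CDT1, which loads the replicative helicase, rose by 1.98, thymidine kinase TK1 by 1.73 and the helicase partner CDC45 by 1.31. The same list gave 13 higher and 8 lower with CoCl2 in Caco-2 (median 0.07). In HT-29 it gave 7 higher and 25 lower with CoCl2 (median -0.33) and 8 and 19 with OD (median -0.12).

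**Figure D4:**
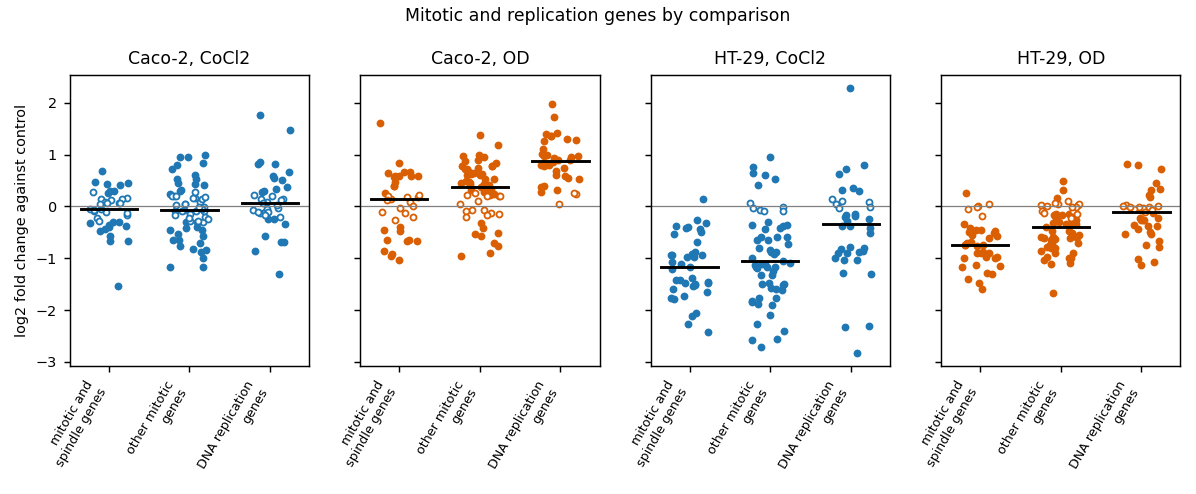
Log2 fold change against control of the 39 tested members, 61 other mitotic genes and 38 DNA replication genes in the 4 treatment comparisons; each point is a gene (filled at an FDR under 0.05) and the bar is the median. In HT-29 both mitotic groups lie mostly below 0, and with OD in Caco-2 the replication genes lie above 0 with a median of 0.88 against 0.14 for the members.

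Among 18 DREAM and MuvB subunits and E2F and RB family genes, 9 passed as higher and 1 as lower with OD in Caco-2 (median 0.38). They included the E2F factors E2F1 (1.43), E2F2 (1.47) and E2F7 (1.58). With CoCl2 the Caco-2 counts were 5 and 5 (median 0.17). In HT-29 they were 5 higher and 11 lower with CoCl2 (median -0.28) and 3 and 13 with OD (median -0.34), and E2F8, a repressor of the family, fell by 2.55 with CoCl2. LIN54, the MuvB subunit that binds the CHR, rose in Caco-2 by 1.51 with CoCl2 and 1.37 with OD, whereas in HT-29 it rose by 1.59 with CoCl2 and had -0.47 with OD. Of 14 G1 cyclins and CDK inhibitors, 7 passed as higher and 6 as lower with CoCl2 and 8 and 3 with OD in Caco-2 (medians 0.14 and 0.44). Of the 13 tested in HT-29, 6 and 5 passed with CoCl2 and 6 and 4 with OD (medians 0.09 and 0.16), which is near the background. CDKN1A (p21), an inhibitor of cyclin-dependent kinases, rose in all 4 comparisons, by 1.26 (CoCl2) and 0.93 (OD) for Caco-2 and by 1.85 and 1.73 for HT-29. CCND1 (cyclin D1), which drives passage through G1, rose in Caco-2 (1.23 and 1.39) and fell in HT-29 (-2.52 and -0.89). The 17 subunits and partners of the anaphase-promoting complex were mixed, with 4 higher and 6 lower (CoCl2) and 3 and 7 (OD) in Caco-2. The HT-29 counts were 7 and 10 (CoCl2) and 4 and 10 (OD). Their medians ran from -0.28 to -0.10. ANAPC15 was the lowest of them in each of the 4 comparisons, at -0.97 (CoCl2) and -0.81 (OD) in Caco-2. Its values in HT-29 were -1.64 and -1.45.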

How the data were processed

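mRNA libraries (3 biological replicates in each of 6 groups, grouped by the sample labels) were analysed. The 18 miRNA libraries were not used. Counts of reads per gene were taken as the authors deposited them. Per their methods and processing notes, they trimmed adapters with cutadapt 2.10, aligned reads with STAR 2.7.5b to GRCh38.p13 and counted them on GENCODE release 34. The counting tool and its use of strand are not given in the sources used here. The authors also deposited a table of log2 values, found on recomputation to be log2 of RPKM plus 1 scaled within each line.

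Each line was fitted alone (9 libraries) with edgeR 4.0.16 in R 4.3.3: TMM scaling, filterByExpr, 1 coefficient per group and the two-sided quasi-likelihood F test, with Benjamini-Hochberg adjustment over all genes tested (FDR). Interactions and the untreated lines were fitted over 18 libraries. Thresholds were an FDR of 0.05 and a log2 fold change of 1. The study used DESeq2, run here (1.42.0) as an alternative. The other alternatives were library size and relative log expression scaling, no filter, a mean count of at least 20, a replicate block, single libraries left out, limma 3.58.1 on the deposited log2 values, and a fold limit of 0.5. The fits were tested on simulated data.

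Same-numbered replicates did not deviate together (correlations of -0.083 to 0.094 over 18 pairs, 0 above 0.1), so the numbers were not taken as pairs. Replicates differed by more than counting error (chi-square per degree of freedom 1.97 to 12.7), and none was a repeat of another. Depth ran from 12925719 to 22332639 counts. The members and lists were chosen with earlier results of these data known. Named with values were 22 genes set by role and, in each comparison, the 2 highest and 2 lowest members that passed. The remaining members and list genes were named to complete their groups, after their values were seen. Gene positions are from GENCODE v44.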

Additional observations from a re-analysis of the deposited data

Results flagged for a closer look

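The response of the mitotic and spindle genes differed between the lines by the interaction test (edgeR, FDR under 0.05 and an absolute log2 difference over 1) for 24 members with CoCl2 and 15 members with OD, each more negative in HT-29 than in Caco-2. Of all 17921 genes tested, 13.8% (CoCl2) and 6.24% (OD) were likewise called more negative in HT-29. The named members that differed in this way with CoCl2, with the log2 response of HT-29 less that of Caco-2, were CCNB1 (-1.46), CDC25C (-2.51), PLK1 (-1.58), AURKA (-1.74), AURKB (-1.17), MAD2L1 (-1.21), CDC20 (-1.47), UBE2C (-1.48), PTTG1 (-1.11), CENPA (-2.09), CENPE (-1.95), NDC80 (-1.53), KIF11 (-1.32) and TOP2A (-1.27). With OD they were CDC25C (-1.14), AURKA (-1.27), NDC80 (-1.19), KIF11 (-1.60), MKI67 (-1.09), FOXM1 (-1.17) and MYBL2 (-1.38). Differences in line, medium and culture state cannot be told apart here.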

How the results depend on the processing

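The counts of members moved little with DESeq2, relative log expression factors, a mean count of at least 20 or the replicate block, under each of which all 30 counts stayed within 1.5 times their value. With library size alone, the counts became, for CoCl2 in Caco-2, 1 higher and 26 lower, 4 called lower for OD in Caco-2, 0 higher and 36 called lower for CoCl2 in HT-29, 16 called lower for OD in HT-29, and 0 higher for CoCl2 against OD in HT-29. The same scaling reversed KIF11 (-0.058) and ANLN (-0.029) for CoCl2 in Caco-2, ANLN (-0.49) for CoCl2 in HT-29, and NUF2 (-0.18), HMMR (-0.085) and ANLN (-0.35) for CoCl2 against OD in HT-29. By construction it drops the TMM factors, which were lowest with CoCl2. The share of all genes that passed or were called on library size alone is not given here. Without the filter, and with limma on the deposited log2 values, 0 members passed as higher with CoCl2 in HT-29 and 2 with CoCl2 against OD in HT-29. A fold limit of 0.5 gave 1 called higher and 4 lower (CoCl2) and 11 and 8 (OD) in Caco-2, 28 called lower with OD in HT-29, and 37 (CoCl2) and 28 (OD) called lower in the interactions, since it admits smaller changes. The share of all genes called at that limit is not given here, and the shares above are for a limit of 1. Leaving out 1 library gave 0 to 2 called lower with OD in Caco-2 and 2 to 4 higher for CoCl2 against OD in HT-29. In the latter, the count of 2 was without CoCl2 replicate 3. The replicate block changed no count by over 1.5 times, and among the named genes MYBL2 between the untreated lines no longer passed (0.17). Limma was not run for the interactions or the untreated lines. NUSAP1 (0 to 14 counts per library) and PRC1 (20 to 196 counts) had few counts for any test, and the cause of their low counts was not tested.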
